A study of Mus musculus with 24 samples.

Results

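The 15 genes described here are the protein-coding and ribosomal RNA genes of the mouse mitochondrial genome. They were chosen by gene ID and by their place on the mitochondrial genome in the RefSeq table of GRCm38. That rule made no use of their values, but earlier results of these data were known when it was set. They are 13 protein genes and 2 ribosomal RNA (rRNA) genes among the 27179 genes of the table, and all 15 passed the low-value filter, a mean log2 value of at least 0, with 25680 genes tested. The reference also lists 22 mitochondrial transfer RNA genes, which were not analysed here. Grpel1 and Grpel2 have IDs in the same range but are nuclear genes, and they were left out.

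The values come from H3K4m3-Seq, in which chromatin carrying trimethylation of lysine 4 on histone H3, a mark of active promoters, is pulled down and sequenced. Brain, heart, kidney and liver of mice were flash frozen, or fixed in formalin and embedded in paraffin (FFPE). The table holds 1 column, called a library below, for each of the 8 combinations. The columns are taken to share this antibody, and the labels give no strain, age, sex or number of animals. Frozen tissue was crosslinked with formaldehyde after freezing and sheared, while FFPE tissue was freed of paraffin and heated in extraction buffer before shearing. The library kits are named without saying which sample had which, so preservation, the handling of the tissue and the kit cannot be told apart.

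Mitochondrial DNA is a small circular genome present in many copies per cell, and it is packed by the protein TFAM and other proteins instead of histones. A read on it in a histone pull-down therefore comes from DNA carried along without the mark, and its share is a common measure of background. Its genes encode core subunits of the respiratory chain and of ATP synthase, plus the RNAs of the mitochondrial ribosome. Heart and kidney tubule are textbook examples of tissues rich in mitochondria. In these tissue libraries, more mitochondrial DNA per cell, a different mix of cells and more carried-over DNA cannot be told apart.

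Depth was 1792394 to 2976029 reads in the frozen libraries and 3388631 to 5275085 in the FFPE libraries, so that each FFPE library was deeper than every frozen one. All 24 organ markers examined were highest in their own organ among the frozen libraries, and all 24 among the FFPE libraries. A summed level of 5 blood, immune and endothelial markers was 61.7 to 119 CPM (reads per scaled library size) in frozen and 92.1 to 198 CPM in FFPE libraries, highest in FFPE heart, with none of the 5 at 0 reads. The part of depth and of these cells in the differences below was not tested.

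Mitochondrial genes took a few percent of all reads in frozen tissue and a larger part in FFPE tissue, most of all in heart and kidney. In frozen tissue the 15 genes held 3.08% of the reads for liver, 3.33% for kidney, 4.01% for brain and 4.05% for heart. In FFPE tissue they held 5.04% for liver, 11.8% for kidney, 6.16% for brain and 17.0% for heart. All 4 FFPE shares lay above all 4 frozen shares. The 95% Wilson interval, which covers counting error only, ran from 17.003% to 17.083% in FFPE heart and from 3.058% to 3.097% in frozen liver, so counting error was far smaller than the differences between libraries. The means were 3.62% ± 0.489 for frozen and 10.0% ± 5.54 for FFPE tissue (SD, n = 4 libraries each).

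**Figure D1:**
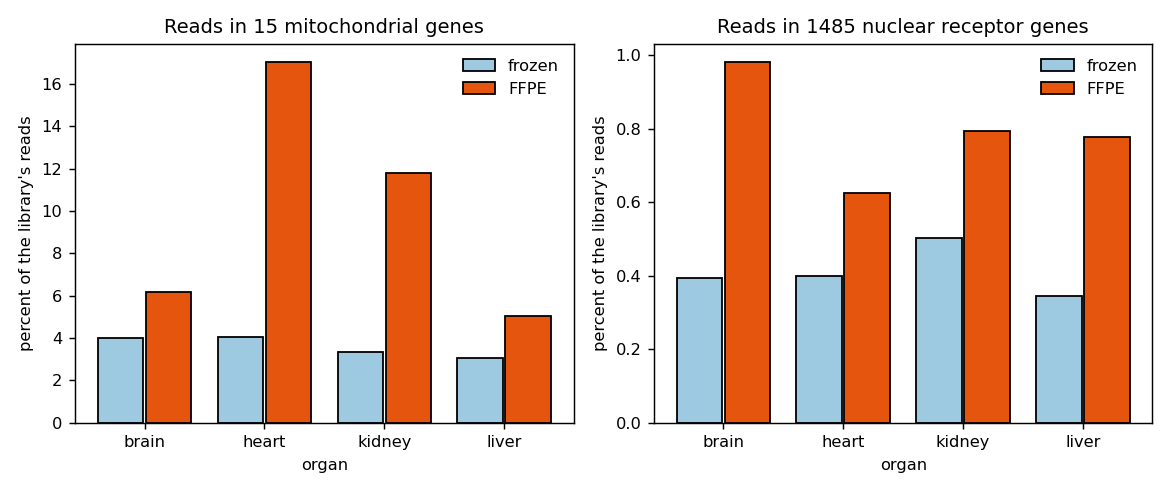
Bars show, for each organ, the percent of a library's reads in the 15 mitochondrial genes (left) and in 1485 nuclear olfactory and vomeronasal receptor genes (right), frozen in blue and FFPE in orange, 1 library per bar. FFPE bars are higher in every organ on the left, 17.0% in heart and 11.8% in kidney, and also higher in every organ on the right.

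The size of the FFPE difference set the organs apart. On the scale of the summed normalized level, FFPE exceeded frozen 4.31-fold in heart, 3.27-fold in kidney, 1.34-fold in brain and 1.24-fold in liver. The mean over the 4 organs was 1.14 ± 0.90 in log2 (SD, n = 4 organs). Frozen libraries differed among themselves by no more than 1.23-fold in the same summed level, while FFPE libraries spanned 3.96-fold. Each organ has a single FFPE and a single frozen library, and the difference between organs in this FFPE effect was not tested. Among the FFPE libraries heart was the shallowest and kidney the deepest.

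The mitochondrial genes were among the highest of all genes in every library. ND5 had the highest value of any gene in all 8 libraries. Between 9 and 10 of the 15 genes were in the top 10 of each library. The highest nuclear gene was Rn45s, the precursor of the cytoplasmic ribosomal RNAs and itself a multicopy gene, in all 8 libraries. In FFPE heart 13 of the 15 lay above Rn45s, and in FFPE liver, where Rn45s had 17836 reads, 5 did. Because long genes collect more reads, ranks and values are not levels per length, which are given further on.

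The rRNA genes encode the RNAs of the mitochondrial ribosome, mt-Rnr1 (gene ID 17724, GRCm38 mitochondrial genome, 70 to 1024) that of the small subunit and mt-Rnr2 (gene ID 17725, 1094 to 2675) that of the large subunit. The log2 normalized value of mt-Rnr1 was 11.77, 11.83, 11.45 and 11.60 in frozen brain, heart, kidney and liver, and 12.32, 13.88, 13.01 and 11.65 in the FFPE libraries in the same order. For mt-Rnr2 it was 12.48, 12.47, 12.15 and 12.21 in frozen and 12.93, 14.44, 13.60 and 12.38 in FFPE tissue. In both genes FFPE heart and FFPE kidney stood above all other libraries, and FFPE liver lay within the frozen range. The pair held 21.6% to 22.7% of mitochondrial reads in frozen libraries and 18.6% to 23.0% in FFPE libraries.

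Complex I, which takes electrons from NADH, has 7 subunits encoded here. ND1 (gene ID 17716, 2751 to 3707) had log2 values of 11.78, 11.73, 11.45 and 11.53 in frozen brain, heart, kidney and liver and 12.07, 13.55, 12.93 and 11.56 in FFPE. ND2 (gene ID 17717, 3914 to 4951) had 11.83, 11.79, 11.54 and 11.62 in frozen and 12.19, 14.11, 13.58 and 12.14 in FFPE. The FFPE values of ND2 all exceeded its frozen values, whereas FFPE liver fell within the frozen range for ND1. ND3 (gene ID 17718, 9459 to 9806) had 9.09, 9.06, 8.59 and 8.75 in frozen and 10.35, 11.89, 11.11 and 9.66 in FFPE. Its lowest FFPE value was 0.57 above its highest frozen value, the widest such gap among the 15 genes. ND4 (gene ID 17719, 10167 to 11544) had 11.86, 11.80, 11.51 and 11.61 in frozen and 12.19, 13.99, 13.31 and 11.91 in FFPE. ND4L (gene ID 17720, 9877 to 10173) had 8.88, 8.94, 8.59 and 8.65 in frozen and 9.45, 11.31, 10.67 and 9.30 in FFPE. Both were higher in every FFPE library than in any frozen one, by at least 0.04 for ND4 and 0.36 for ND4L.

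ND5 (gene ID 17721, 11742 to 13565), the longest of the 15 genes, had log2 values of 12.68, 12.62, 12.40 and 12.45 in frozen brain, heart, kidney and liver and 13.04, 14.77, 14.21 and 12.92 in FFPE. ND6 (gene ID 17722, 13552 to 14070), the complex I subunit encoded on the opposite strand, had 10.90, 10.87, 10.62 and 10.62 in frozen and 11.22, 13.01, 12.46 and 11.14 in FFPE. The frozen and FFPE values did not overlap in either gene, and the order of the FFPE libraries was heart, kidney, brain and liver in both. Complex III has a single subunit here, CYTB (gene ID 17711, 14145 to 15288). It had 11.97, 11.91, 11.68 and 11.71 in frozen and 12.45, 14.19, 13.56 and 12.28 in FFPE, again without overlap.

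Complex IV, cytochrome c oxidase, has 3 subunits encoded here. COX1 (gene ID 17708, 5328 to 6872) had log2 values of 12.13, 12.11, 11.91 and 12.01 in frozen brain, heart, kidney and liver and 12.55, 14.03, 13.34 and 12.11 in FFPE. COX2 (gene ID 17709, 7013 to 7696) had 10.28, 10.24, 10.02 and 10.14 in frozen and 10.72, 12.55, 11.83 and 10.54 in FFPE. COX3 (gene ID 17710, 8607 to 9390) had 10.26, 10.21, 10.02 and 10.08 in frozen and 10.82, 11.95, 11.24 and 10.05 in FFPE. COX2 did not overlap between preservation types, while COX1 and COX3 did through FFPE liver. COX3 in liver was the single case, of 60 pairs of gene and organ, in which FFPE was not higher, with a difference of -0.03.

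ATP synthase has 2 membrane subunits here, whose genes overlap by 43 bases. ATP8 (gene ID 17706, 7766 to 7969), the shortest member and the one with the fewest reads, had log2 values of 8.21, 8.30, 7.92 and 8.05 in frozen brain, heart, kidney and liver and 8.61, 10.51, 9.85 and 8.35 in FFPE. ATP6 (7927 to 8607) had 10.06, 9.99, 9.73 and 9.81 in frozen and 10.41, 12.04, 11.42 and 10.02 in FFPE. ATP8 did not overlap between preservation types and ATP6 did, through FFPE liver. The smallest count behind any of these values was 538 reads, and the largest 105790. Reads in the shared bases of ATP8 with ATP6, of ND4L with ND4 (7 bases), of ND5 with ND6 (14 bases) and of ATP6 with COX3 (1 base) could not be assigned to a single gene, and how they were counted is not given.

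**Figure D2:**
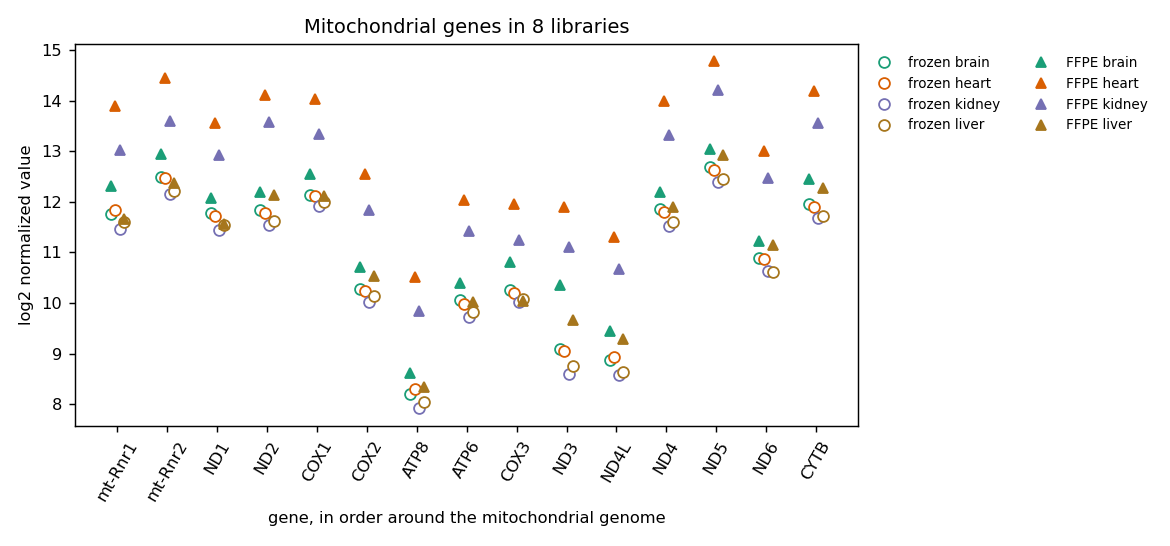
Each point is the log2 normalized value of 1 of the 15 genes in 1 library, open circles for frozen and filled triangles for FFPE, coloured by organ, with the genes in order around the mitochondrial genome. FFPE heart and FFPE kidney stand above every other library at all 15 genes, and the 4 frozen libraries lie within 0.50 of each other.

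All 15 genes passed as higher in FFPE than in frozen tissue, at a Benjamini-Hochberg adjusted p under 0.05 over all tested genes. The test was limma's linear model with organ and preservation, in 8 libraries with 3 residual degrees of freedom. Of all tested genes, 37.8% passed in either direction, 16.5% as higher and 21.3% as lower. The median difference of the 15 was 1.20 in log2, and that of all tested genes 0.18. ND3 had the largest difference, 1.88 ± 0.26 (SE, 4 FFPE and 4 frozen libraries), or 3.68-fold, with an adjusted p of 0.000283 and higher values in 4 of 4 organs. ND4L followed at 1.42 ± 0.26, 2.67-fold, with an adjusted p of 0.00119. At the other end were ND1, 0.90 ± 0.31 with an adjusted p of 0.032, and COX3, 0.87 ± 0.25 with an adjusted p of 0.0139. ND2 and CYTB stood at 2.48-fold and 2.47-fold, and mt-Rnr1 and mt-Rnr2 at 2.08-fold and 2.01-fold. With a single library per organ and preservation type, the spread behind the p-values is how unequal the FFPE difference was between organs. It was also drawn toward that of other genes, from an SD of 0.55 to 0.72 for the 15 genes to 0.35 to 0.51. Passing thus rests in part on other genes. Nothing states that separate animals gave the libraries, so this spread may be technical.

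The 15 genes lie on the same small genome and rose together, so counts among them, here and elsewhere, are not counts of independent results. For 9 of the 15 genes, every FFPE library lay above every frozen library, which held for 13.1% of all tested genes. FFPE exceeded frozen in all 4 organs for 14 of the 15 and for 26.7% of all tested genes. The number that passed depended on the heart and kidney libraries. It was 4 without frozen heart, 4 without frozen kidney, 6 without FFPE heart, 5 without FFPE kidney and 11 without frozen brain. Of all 25680 tested genes, 2812, 2367, 2720, 2267 and 2810 passed as higher, in the same order. ND3, ND4L, COX2 and ATP8 were the genes that passed in all 8 of these fits with 1 library left out. The 8 fits are not separate checks. Leaving out either library of an organ takes that organ out of the FFPE difference, and the estimate is the same for both. The share of all tested genes that passed in all 8 was not counted. The model takes the FFPE difference as equal in all organs, and the residual SD of the 15 genes, 0.55 to 0.72, was larger than the median of all genes, 0.34. When the spread was estimated without its trend over the level, 2 genes passed, ND3 and ND4L, as did 3297 of all 25680 tested genes as higher. Without the low-value filter 7 passed, and 3976 of all 27179 genes passed as higher. After quantile normalization, which gives all libraries the same top values by construction, 5 passed as higher, COX1 passed as lower at -0.20, and the median of the 15 was 0.078. Of all 25680 tested genes, 3257 then passed as higher.

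**Figure D3:**
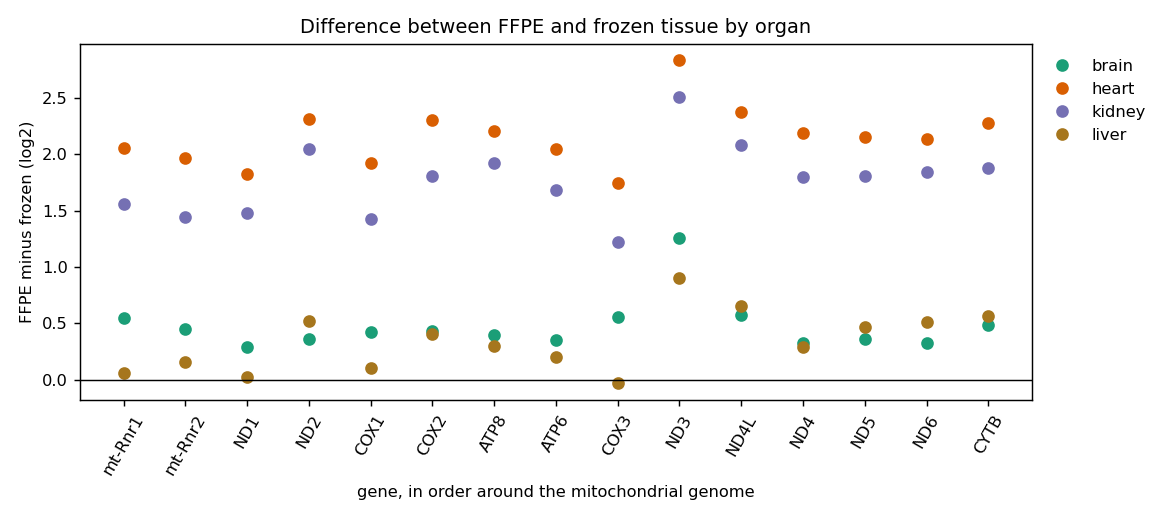
Each point is the FFPE minus frozen difference in log2 normalized value for 1 gene in 1 organ, with genes in order around the mitochondrial genome and the line at 0. Heart lies between 1.75 and 2.84 and kidney between 1.22 and 2.51, above brain and liver at every gene, and ND3 is the highest gene in each organ.

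The median difference over the 15 genes was 2.15 in heart (range 1.75 to 2.84), 1.81 in kidney (1.22 to 2.51), 0.42 in brain (0.29 to 1.26) and 0.30 in liver (-0.03 to 0.91). ND3 had the largest difference in all 4 organs. The plot of FFPE minus frozen values shows heart and kidney above brain and liver at every gene.

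No mitochondrial gene passed in a comparison of an organ with the mean of the other organs. In heart the median difference was 0.80 (range 0.67 to 0.91), with adjusted p-values from 0.156 to 0.434 in limma, and 10 of the 15 had an unadjusted p under 0.05, as did 15% of all tested genes. In liver it was -0.69 (-0.81 to -0.60), with 5 at an unadjusted p under 0.05, against 22.1% of all tested genes. In brain it was -0.33 and in kidney 0.19, with 0 at an unadjusted p under 0.05 in either, against 20.5% and 9.66% of all tested genes. Of all tested genes, 2.57% passed in limma for heart (1.72% higher and 0.853% lower) and 9.96% for liver (5.13% and 4.84%). For brain it was 10.1% (5.53% and 4.53%) and for kidney 1.21% (0.802% and 0.405%). Without frozen liver, 7 mitochondrial genes passed as higher in heart, as did 790 of all 25680 tested genes. The liver median was then -1.26, with FFPE liver as its only library.

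The heart difference was seen in FFPE tissue, and without FFPE heart the median over the 15 genes was 0.14. The summed level of heart was 1.10-fold that of the other organs' mean among frozen libraries and 2.70-fold among FFPE libraries. Kidney was 0.862-fold among frozen and 1.46-fold among FFPE libraries. Brain was 1.14-fold among frozen and 0.587-fold among FFPE libraries, and liver 0.925-fold and 0.432-fold. In frozen tissue the order was brain, heart, liver and kidney, over a range of 0.30 in log2. By share of all reads the frozen order was heart, brain, kidney and liver, so it depends on the scale. In FFPE tissue the order was heart, kidney, brain and liver by either measure, over a range of 1.99 in the summed level. There is 1 library at each place in these orders, so neighbours in them were not tested.

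Nuclear genes that are silent in these organs give another measure of background. Olfactory and vomeronasal receptors are sensory proteins of the nose, and their genes are closed in most other tissues. In frozen tissue the 1485 receptor genes held 0.346% of the reads for liver, 0.503% for kidney, 0.395% for brain and 0.399% for heart. In FFPE tissue they held 0.779% for liver, 0.793% for kidney, 0.982% for brain and 0.625% for heart. This nuclear background was also higher in FFPE than in frozen tissue of every organ, with its largest share in brain and not in heart. In limma, 244 of 1472 tested receptor genes passed as higher in FFPE, or 16.6%, which is near the 16.5% of all tested genes. For the opposite direction, 1 receptor gene passed, or 0.0679% against 21.3% of all tested genes. The median of the receptor genes was 0.76 against 0.18 for all tested genes.

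Set against the receptor genes, mitochondrial reads were higher in FFPE than in frozen heart and kidney and lower in FFPE than in frozen brain and liver. Per receptor read there were 10.2 mitochondrial reads in frozen heart and 27.3 in FFPE heart, and 6.63 and 14.9 in kidney. There were 10.2 in frozen brain and 6.28 in FFPE brain, and 8.89 and 6.47 in liver. The log2 change in the ratio of reads per kb was 1.43 in heart, 1.17 in kidney, -0.69 in brain and -0.46 in liver. With the lowest 20 percent of nuclear genes in place of the receptors, it was 1.33, 1.00, -0.55 and -0.68. These were the tested nuclear genes of lowest mean over the same 8 libraries, and receptor genes were not removed from them. Of 5133 such genes, the 4521 with a known length were used. Each value compares 1 FFPE with 1 frozen library and has no replicate. The direction in brain and liver thus depends on the scale: the share of all reads was higher in FFPE, and the ratio to silent nuclear genes was lower.

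**Figure D4:**
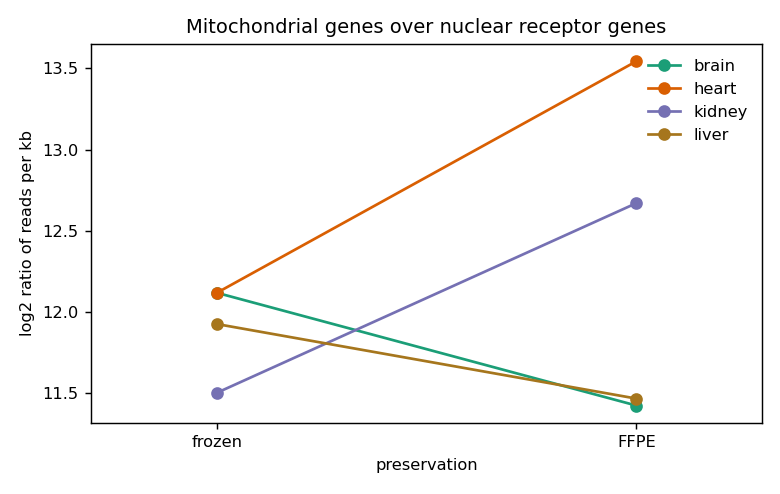
Lines join the frozen and FFPE library of each organ, and the y axis is the log2 ratio of reads per kb in the 15 mitochondrial genes to reads per kb in the nuclear receptor genes. FFPE minus frozen is 1.43 in heart and 1.17 in kidney, and -0.69 in brain and -0.46 in liver.

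The reads were not spread evenly over the mitochondrial genome. Levels per length were taken as reads per kb of gene, each as a percent of the sum over the 15 genes, so that equal coverage would give every gene the same percent. In the frozen libraries, 6 neighbouring genes from COX2 to ND4L had 3.39% to 4.76%, and the other 9 genes had 6.48% to 9.59%. The mean of the 9 was 2.12 to 2.18 times that of the 6 in frozen and 1.83 to 1.97 times in FFPE libraries. COX1 and ND4, which flank this stretch, lay in between, at 7.43% ± 0.26 and 6.56% ± 0.089 in frozen tissue (SD, n = 4 libraries). ND6, past ND4 and ND5, was at 9.06% ± 0.203.

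The nuclear genome carries copies of mitochondrial DNA, and RefSeq annotates a pair of pseudogenes that match this stretch. Gm10925 (GRCm38 chromosome 1, 24613971 to 24614651), for which the table lists mt-Atp6 among its synonyms, is 681 bases long, as is ATP6. Gm10222 (chromosome 1, 24612404 to 24612700) is 297 bases long, as is ND4L. The ends of the pseudogenes are 1951 bases apart, and the starts of ATP6 and ND4L 1950. Reads that fit a nuclear copy as well as the mitochondrial gene could be lost or split by the counting, whose settings are not given. The levels of ATP6, ND4L and their neighbours are therefore uncertain, and the part of nuclear copies in the low stretch was not tested.

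The profile over the genes was nearly the same in the 4 frozen libraries and varied among the FFPE libraries. Over genes, the median SD of the log2 percent was 0.032 among frozen and 0.099 among FFPE libraries. In frozen tissue the gene with the widest range was ND3, at 0.19, and in FFPE tissue it was COX3, at 0.58. The median distance of a library from the mean of the frozen libraries (without itself) was 0.027 to 0.040 for frozen libraries. It was 0.094 for FFPE brain, 0.12 for FFPE heart, 0.19 for FFPE liver and 0.24 for FFPE kidney. By the gene farthest from that mean, which was ND3 in each FFPE library, the distance was 0.88 in brain, 0.76 in heart, 0.64 in kidney and 0.53 in liver, so the order of the libraries depended on the measure.

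ND3 stood out in this profile in every FFPE library. It took 3.88%, 3.85%, 3.39% and 3.58% in frozen brain, heart, kidney and liver and 6.77%, 6.20%, 5.70% and 5.29% in the FFPE libraries, a ratio of means of 1.63. ND4L, the next protein gene along, took 3.90% to 4.16% in frozen and 4.25% to 4.93% in FFPE libraries, and CYTB took 8.45% to 8.73% and 8.84% to 9.90%. ND3, ND4L and CYTB were the genes whose FFPE percents were higher in 4 of 4 organs without overlap with the frozen ones. Both ND3 and ND4L lie in the stretch of low coverage in frozen tissue. In FFPE brain ND3 lay above ND4, which took 6.09%, and in FFPE heart above COX1, which took 6.17%. In FFPE kidney and liver ND3 stayed below the 9 genes outside the stretch.

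Other genes had a smaller percent in FFPE tissue. ND1 took 8.91% to 9.09% in frozen and 7.11% to 8.11% in FFPE libraries, COX1 7.19% to 7.70% and 6.03% to 7.00%, and ATP6 3.76% to 3.87% and 3.47% to 3.62%, each without overlap. COX3 lay below its frozen range of 3.79% to 4.04% in FFPE heart, kidney and liver, at 2.87%, 2.79% and 3.07%, but was at 4.16% in FFPE brain. ND2 showed the opposite, at 9.64%, 10.6% and 9.91% in FFPE heart, kidney and liver and 8.14% in FFPE brain, against 8.58% to 8.75% in frozen libraries. The rRNA genes had their lowest percents in FFPE kidney and liver, at 7.80% and 7.68% for mt-Rnr1. These percents were not tested gene by gene.

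**Figure D5:**
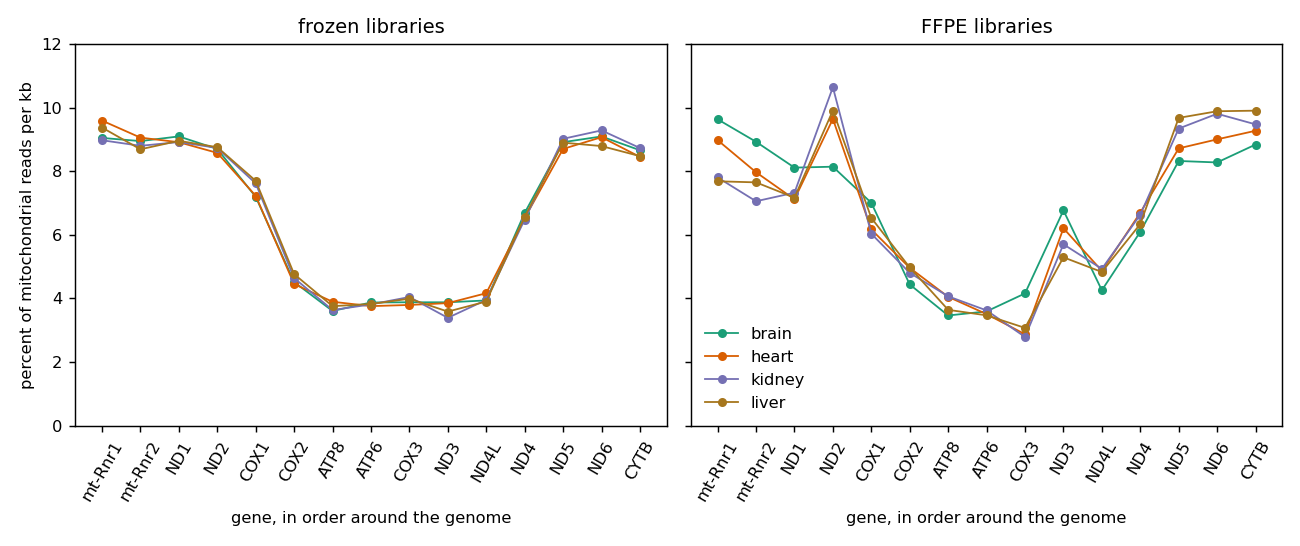
Lines show, for each organ, the percent of mitochondrial reads per kb taken by each of the 15 genes in order around the genome, frozen libraries on the left and FFPE on the right. The 4 frozen profiles nearly coincide, with the stretch from COX2 to ND4L at 3.39% to 4.76%, and the FFPE profiles spread apart, with ND3 between 5.29% and 6.77%.

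Most nuclear genes of the respiratory chain were lower in FFPE tissue. Of 101 such genes, 74 passed as lower in FFPE and 0 as higher in limma, with a median of -0.91. An unadjusted p under 0.05 was reached by 78, or 77.2% against 49.5% of all tested genes. Among all tested genes 21.3% passed as lower and the median was 0.18. The respiratory chain genes held 0.472% to 0.555% of reads in frozen and 0.278% to 0.317% in FFPE libraries. Of 35 nuclear genes for the upkeep and transcription of mitochondrial DNA, 12 passed as lower in FFPE, 2 as higher and 21 in neither direction. Together 40% of them passed, against 37.8% of all tested genes, and their median was -0.43. By direction, 34.3% passed as lower against 21.3% of all tested genes, and 5.71% as higher against 16.5%. Polg2, the accessory subunit of the mitochondrial DNA polymerase, fell by 0.93 ± 0.15 (SE, adjusted p = 0.000585). Prorp, a subunit of mitochondrial RNase P, fell by 0.91 ± 0.15 (adjusted p = 0.00072). Cytoplasmic ribosomal protein genes passed as lower for 60 of 125 tested, or 48%, and as higher for 8, or 6.4%, with a median of -0.56.

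The same lists were compared across organs. Polrmt, the mitochondrial RNA polymerase, was higher in brain at 0.68 ± 0.19 (adjusted p = 0.0354), the 1 of 35 upkeep genes to pass there, or 2.86% against 10.1% of all tested genes. In liver 3 passed as higher and 1 as lower, or 11.4% against 9.96%. Those of smallest p were Dna2, a nuclease and helicase, at 0.96 ± 0.20 (adjusted p = 0.00658), and the mitochondrial protease Lonp1 at 0.61 ± 0.16 (adjusted p = 0.0293). In heart and kidney 0 upkeep genes passed in limma. An unadjusted p under 0.05 was reached by 14.3% of them in heart and 2.86% in kidney, against 15% and 9.66% of all tested genes. Of the respiratory chain genes, 2 passed as lower in brain, 1 as higher in heart and 1 as higher in liver. These are 1.98%, 0.99% and 0.99%, against 10.1%, 2.57% and 9.96% of all tested genes in either direction. In kidney 0 passed and 3 had an unadjusted p under 0.05, or 2.97% against 9.66% of all tested genes. Cytoplasmic ribosomal protein genes passed as higher in liver for 16 of 125, or 12.8% against 5.13% of all tested genes. In brain, heart and kidney 0 of them passed, with 13, 9 and 5 at an unadjusted p under 0.05. These are 10.4%, 7.2% and 4%, against 20.5%, 15% and 9.66% of all tested genes.

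The nuclear genes whose profile over the 8 libraries was most like the summed mitochondrial level were sought among 21612 tested genes with a range of at least 1 in log2. The 10 closest had a Pearson r of 0.943 to 0.967 over 8 libraries, and all 10 were highest in FFPE heart. The summed level is itself highest in FFPE heart, so this choice of genes favours those that peak there. They were Gm25212, Ttc30a2, Tac4, Trpc5os, Tldc2, Klf10, 4930544D05Rik, Tmprss11c, Serinc3 and Mgat4f. Klf10, a transcription factor, had 77 to 344 reads per library, and Gm25212 had 5 to 35. Such values are a description only, since the libraries share depth and preservation and the 10 were picked from many.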

How the data were processed

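H3K4m3-Seq values of 8 libraries were analysed. The labels describe 24 samples, 12 H3K4m3 and 12 input, with 4 frozen and 8 FFPE samples among the former. The columns name no antibody or replicate and were taken as H3K4m3 from the titles, and no source says whether an FFPE column merges the 2 dated FFPE samples of its organ. The authors deposited log2 normalized values. The submitters' processing notes list Bowtie2, featureCounts, limma and mm10, while their settings are not stated. In form, the deposited log2 values were (reads + 0.5) over a scaled library size, as CPM. Whole reads were recovered to within 0.001 for 100% of values, and scaled size over total reads ran from 0.856 to 1.13.

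Of the table's IDs, 25275 matched the GRCm38 RefSeq table, the assembly of mm10. Differences were tested with limma 3.58.1 in R 4.3.3 (organ and preservation in 1 model, empirical Bayes with intensity trend, Benjamini-Hochberg adjustment over 25680 genes). The fit was tried on simulated data without organ effects and with the same FFPE change in every organ. That trial cannot show how the test behaves where the FFPE difference varies between organs, as it did for these genes. Alternatives were no filter, quantile normalization, library sizes without mitochondrial reads, precision weights, no trend (chosen after seeing the data) and leaving out each library, and for sums also leaving out ND5. The library sizes without mitochondrial reads were also left unscaled. All 15 genes are named, with up to 2 upkeep genes of smallest p among those that passed per comparison and the 10 genes of most similar profile. Members and lists were chosen with earlier results of these data known, so sums over them carry no p-value. Intervals leave out amplification, which makes reads dependent.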

Additional observations from a re-analysis of the deposited data

Results flagged for a closer look

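In the ratio of mitochondrial to nuclear receptor reads per kb, FFPE minus frozen was -0.69 in brain and -0.46 in liver, while heart and kidney moved the opposite way, at 1.43 and 1.17. There is 1 library per organ and preservation type, and the difference between organs was not tested. ND4L took 4.25% of mitochondrial reads per kb in FFPE brain, apart from 4.83% to 4.93% in the other FFPE libraries. This was 1 of 64 groups of 4 libraries examined, of which chance alone would single out about 1 in 20.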

How the results depend on the processing

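The direction of the FFPE difference held for all 15 genes in every alternative except quantile normalization, which makes the top values of all libraries equal by construction. There the median fell from 1.20 to 0.078, ND1, COX1 and ND4 turned to -0.027, -0.20 and -0.053, and 5 genes passed as higher, with COX1 passing as lower. The organ medians became 0.025 for brain, 0.080 for heart and -0.11 for liver. In brain 1 gene passed and in liver 4, against 13.4% and 11.4% of all tested genes. In FFPE against frozen, 7 genes passed without the low-value filter and 2 without the trend (chosen after seeing the data). With total reads less mitochondrial reads as library sizes, the median of all genes moved from 0.18 to 0.45 and that of the 15 to 1.47. These sizes also left out the scaling of the deposited values, and the part of each in the move was not tested. All 15 passed as higher, as did 7185 of all 25680 tested genes. With precision weights all 15 also passed as higher, as did 3768 of all 25680 tested genes. With 1 library left out, between 4 and 15 passed as higher, as did 2267 to 3486 of all 25680 tested genes. The median of the 15 ran from 0.87 to 1.48. The same ranges for organ medians were -0.88 to 0.19 for brain, 0.14 to 1.47 for heart, -0.22 to 0.58 for kidney and -1.26 to -0.11 for liver, with 0 to 7 passing in heart and 0 to 2 in liver. The cause was not tested. With 1 organ left out, the mean FFPE difference of the summed level ran from 0.82 to 1.41. That of its ratio to receptor genes, 0.36 ± 1.09 (SD, n = 4 organs), ran from 0.0049 without heart to 0.71 without brain. Summing protein and rRNA genes alone is the same as the reported sum. Counts of 538 reads or more leave little counting error, and 1 library per organ and preservation type is the limit. No paired analysis was possible by replicate number, because the columns carry none. FFPE and frozen libraries were compared within organ in the model and in the FFPE minus frozen values. The group means, the overlap of ranges and the distances from the frozen mean took all organs together.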
